A study of Rattus norvegicus with 10 samples.

Results

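miR-26a and miR-26b are a pair of microRNAs with one seed sequence. They were selected by name: the probes of the array called exactly rno-miR-26a and rno-miR-26b, 2 probes of 1107 in all and of 237 that carry a rat miRNA name. No other probe has miR-26a or miR-26b in its name. MicroRNAs of growing collateral vessels, the natural bypass arteries of a closed main artery, had been compared with those of quiescent ones in male rats of the Sprague-Dawley strain, spelled Spraque-Dawley in the labels. In the shunt group (n = 5 RNAs) the femoral artery of one leg was ligated and an arteriovenous shunt was placed, which raises fluid shear stress in the collaterals, while in the control group (n = 5 RNAs) the opposite leg of the same 5 animals had a sham operation. The labels give neither the animals' age nor the time after surgery, and a control leg belongs to an animal that carries the shunt on its other side. Of the 10 arrays, each of which compares a pair of RNAs, 2 carried any given RNA, once in the dye AF665 and once in AF546, in a closed loop: 4 arrays held shunt RNA only, 2 held both groups and 4 held control RNA only.

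MicroRNAs are short RNAs that lead Argonaute proteins to messenger RNAs, mostly through bases 2 to 8 of the microRNA, the seed. As background, miR-26 is known to repress SMAD1 and SMAD4, which relay bone morphogenetic protein and TGF-beta signals, and EZH2, a chromatin repressor. In human vascular smooth muscle cells in culture miR-26a has been reported to promote proliferation and to restrain differentiation, and in endothelial cells to restrain the growth of new vessels through SMAD1. Its genes lie within genes of the CTDSP phosphatase family, with which they are known to be transcribed.

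The mature sequences (RefSeq, build GRCr8) are shown because the pair differs in so few bases. The probes' own sequences were not used here. Capitals mark the seed, and both array names were matched to the 5p arm.
miR-26a: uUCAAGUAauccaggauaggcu
miR-26b: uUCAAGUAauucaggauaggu
miR-26a lies at chr8:127633063-127633084 on the plus strand, within the span of Ctdspl. miR-26b lies at chr9:83425723-83425743 on the plus strand, within the span of Ctdsp1, and both host genes are on the plus strand too. Counted from 1 at the 5′ end, with the base of miR-26a first, they differ by C11U and C21U, and miR-26a has 1 base more (22 against 21), so 19 of 21 compared positions were identical. Of 693 mature rat miRNA names in the table, these 2 have this seed. The hairpins show where each arm sits, with the mature 5p arm in capitals.
Mir26a hairpin: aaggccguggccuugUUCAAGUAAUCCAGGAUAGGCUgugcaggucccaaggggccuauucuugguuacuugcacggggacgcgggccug
Mir26b hairpin: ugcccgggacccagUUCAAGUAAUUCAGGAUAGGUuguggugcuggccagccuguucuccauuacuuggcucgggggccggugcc
How far the probe of one member also binds the other was not tested, so a level of either may hold signal of both.

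Neither miR-26a nor miR-26b differed between shunt and control RNAs beyond the spread between RNAs. miR-26a averaged 8.25 ± 0.27 on the log2 intensity scale in shunt RNAs and 8.26 ± 0.33 in control RNAs (SD, n = 5 each). miR-26b averaged 6.87 ± 0.18 in shunt RNAs and 6.75 ± 0.46 in control RNAs (SD, n = 5 each). The groups overlapped for both members, while 5 of the 93 miRNAs kept for testing had groups that did not overlap (5.38%). Among these, miR-21, miR-28 and miR-221 were kept through shunt RNAs only. They had 8, 8 and 9 of 10 shunt readings above background, against 0, 1 and 4 of 10 control readings. Both members read higher on the shunt side in 3 animals and lower in 2.

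miR-26a was well detected in every RNA. Its level was 8.23, 8.52, 8.48, 8.19 and 7.84 in shunt RNAs 1 to 5, against 7.98, 8.36, 8.18, 8.78 and 8.005 in control RNAs 1 to 5 (log2 intensity). Control 4 was the highest of the 10 RNAs. Shunt 5 was the lowest through 1 faulty spot and read 8.23 without it, and the other shunt values lay inside the range of the controls. All 10 shunt readings and all 10 control readings were above background, meaning that at least 2 of the 3 spots of the probe exceeded the local background by 2 SD. The scanned signal over background of a reading ran from 47.7 to 1106 intensity units in shunt RNAs and from 85.7 to 805 in control RNAs, and no spot had saturated pixels.

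On the array of shunt 5 and control 1 the second spot of miR-26a carried the scanner software's flag for a spot not found, and read 5.84 (shunt 5) and 5.85 (control 1) on the log2 scale, while the other spots read 8.46 and 7.97 for shunt 5 and 8.55 and 8.20 for control 1. This was 1 of 30 spots of miR-26a over the arrays, and 0 of 30 spots of miR-26b had the flag. The SD of the 3 spots was 1.40 for shunt 5 and 1.47 for control 1 there, against 0.026 to 0.54 on the other 9 arrays. For miR-26b, with no such flag, it was 0.65 for shunt 5 and 0.69 for control 1 on this array, against 0.023 to 0.49 on the other 9. The copies of a probe also drifted there: the median level of the 93 miRNAs kept for testing was higher in the first than in the third copy by 0.23, 0.26, 0.62 and 0.48 log2 on the arrays numbered 7, 8, 9 and 10, the last of which is this one, against -0.11 to 0.047 on the other 6. Arrays 7, 8 and 9 held shunt RNA only, and array 10 held shunt 5 and control 1. The drift therefore fell mainly on shunt RNAs and is partly confounded with the group. The part of this drift in the miR-26 levels was not tested. Without the flagged (faulty) spot of miR-26a, a choice made after seeing the data, shunt 5 moved to 8.23 (7.84 with it) and control 1 to 8.40 (7.98 with it). The spot counts for 1 RNA of each group, and the difference without it was -0.014 log2 (SE 0.14, limma adjusted p = 0.956), while the SD was 0.16 in shunt RNAs (0.27 with it) and 0.29 in control RNAs (0.33 with it).

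miR-26b is the dimmer probe, although brightness cannot rank one probe against another as an amount of RNA. Its level was 6.70, 7.18, 6.86, 6.77 and 6.82 in shunt RNAs 1 to 5, against 6.89, 6.45, 6.38, 7.50 and 6.50 in control RNAs 1 to 5 (log2 intensity). The shunt values lay close together, while among controls 3 values lay below every shunt RNA and control 4 lay above them all. Of its readings, 9 of 10 from shunt RNAs and 5 of 10 from control RNAs exceeded the background. Both readings of control 2 and of control 5 and 1 of those of control 3 were not above background. The signal over background ran from 13 to 247 intensity units in shunt RNAs and from 8.67 to 245 in control RNAs. Across all rat miRNAs the shunt RNAs had more probes above background too, 88.8 on average (72.5 to 102.0) against 60.5 in control RNAs (36.5 to 84.5), and whether this moves the miR-26b readings was not tested.

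**Figure D1:**
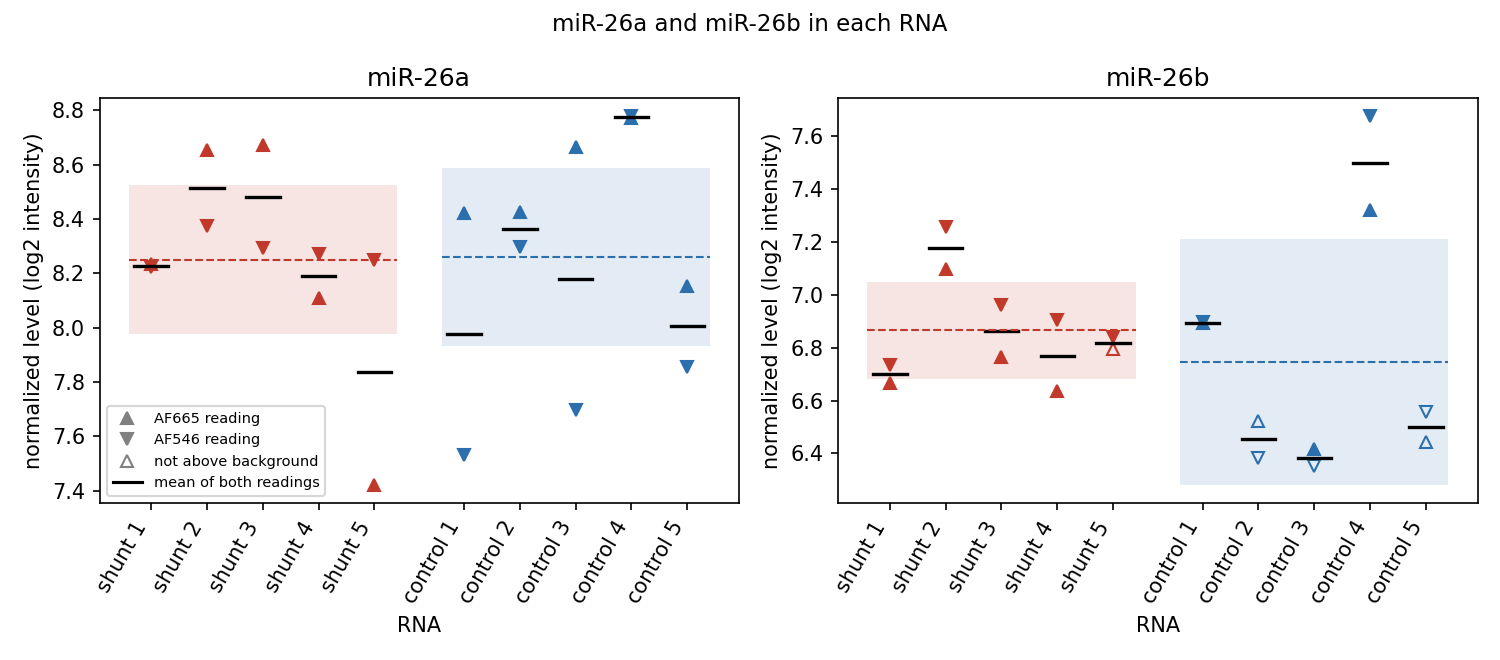
Levels of miR-26a (left panel) and miR-26b (right panel) on the log2 intensity scale in each RNA, shunt RNAs left of control RNAs. Triangles pointing up are AF665 readings and triangles pointing down AF546 readings, open where fewer than 2 of 3 spots were above background. Black bars are the mean of both readings, dashed lines the group mean and shaded bands ± 1 SD (n = 5). Control 4 is highest for both, and the bands of the groups overlap; the level axes do not start at 0.

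Each difference was fitted with limma over 93 rat miRNAs, those with 5 or more of the 10 readings of 1 group above background, with Benjamini-Hochberg adjustment. Both members passed this filter in either group. miR-26a differed by -0.0090 log2 (SE 0.17, adjusted p = 0.981), with a 95% interval of -0.39 to 0.37 or 0.763-fold to 1.29-fold. miR-26b differed by 0.12 log2 (SE 0.20, adjusted p = 0.745), with a 95% interval of -0.32 to 0.56 or 0.801-fold to 1.47-fold. Of the 2 members 0 were called, against 1 of the 93 miRNAs (1.08%), miR-21, which was lost with the animal as a block (0 called, smallest adjusted p = 0.126). With 8 of 10 shunt readings and 0 of 10 control readings above background, miR-21 passed the filter through shunt RNAs only. An unadjusted p under 0.05 was found for 0 of the 2 members, against 18 of the 93 (19.4%). The difference of miR-26b was itself the median over the 93 miRNAs, 67 of which (72.0%) read higher in shunt RNAs, and miR-26a lay below it, at -0.13 log2 relative to that median. Two-sided exact permutation tests on the 10 values gave p = 0.96 for miR-26a and p = 0.643 for miR-26b unpaired (smallest possible 0.00794), and p = 0.9375 and p = 0.6875 when only the legs of an animal were exchanged (smallest possible 0.0625). RNAs that share an array were taken as independent, so these intervals may be too narrow.

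The spread between RNAs of the members was above the median of the miRNAs kept for testing. The SD within groups was 0.30 log2 for miR-26a and 0.35 for miR-26b, against a median of 0.19 over the 93 miRNAs; 65 of the other 92 had a smaller SD than miR-26a (56 without the faulty spot, where its SD was 0.23) and 75 a smaller one than miR-26b. Most of the 93 are dimmer than miR-26a, which ranked at 10 by mean level, and the offset understates changes of dim probes. The miRNAs brighter than miR-26a had SDs from 0.25 (miR-24) to 0.47 (miR-143). Its SD with all spots lay inside that range and its SD without the faulty spot below it, so it was not wide for its brightness. The miR-26b values depended on 1 RNA in particular. Without control 4 its difference was 0.31 log2 (SE 0.13), with an unadjusted p of 0.0342 and an adjusted p of 0.0945 in the same limma fit, in which 25 of the 93 miRNAs passed. Control 4 was the highest control for 41 of the 93 miRNAs, and it had the most rat miRNAs above background among controls, 84.5 as the mean of its readings.

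Within animals the 2 members pointed the same way in 3 of 5 with all spots, and in 5 of 5 without the faulty spot of miR-26a or without its whole array. In animal 27 the shunt leg was higher than the control leg by 0.25 log2 for miR-26a, but the difference was -0.17 without the faulty spot, and miR-26b differed by -0.19. In animals 28 and 30 both were higher, by 0.15 and 0.30 for miR-26a and by 0.72 and 0.48 for miR-26b. In animal 31 both were lower, with a difference of -0.59 for miR-26a and -0.73 for miR-26b, and this animal held control 4. In animal 32 miR-26a differed by -0.17, but by 0.23 without the faulty spot, and miR-26b by 0.32. The mean over animals was -0.0090 ± 0.37 for miR-26a and 0.12 ± 0.58 for miR-26b (SD, n = 5), so the spread between animals was larger than the mean difference for both. A split of this kind, with 3 animals one way and 2 the other, was found for 40 of the 93 miRNAs (43.0%).

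The authors' deposited table of folds gave larger differences in some of these animals. It holds signed folds, negative where the shunt leg was higher, which equal the differences of the deposited log2 values given here. For miR-26a the deposited values had the shunt leg higher by 0.13 log2 in animal 27 (the authors' p = 0.425), by 2.67 in animal 28 (p = 3.64e-05) and by 1.22 in animal 30 (p = 0.0173), and a difference of -1.33 in animal 31 (p = 0.0938) and of -0.099 in animal 32 (p = 0.369). For miR-26b the authors' deposited table gave -0.11 in animal 27 (p = 0.926), 1.70 in animal 28 (p = 0.00314), 0.47 in animal 30 (p = 0.47), -1.26 in animal 31 (p = 0.0538) and 0.14 in animal 32 (p = 0.747). The test behind these p-values is not stated, and each compares 2 RNAs. For miR-26b the direction was the one found from the scanner files in 5 of 5 animals. For miR-26a this was so in 5 of 5 with all spots, and in 3 of 5 without the faulty spot, where animals 27 and 32 went the other way. With the limma fit on the authors' deposited value table the members did not pass either: miR-26a differed by 0.52 log2 (SE 0.55, adjusted p = 0.578) and miR-26b by 0.19 (SE 0.37, adjusted p = 0.766).

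**Figure D2:**
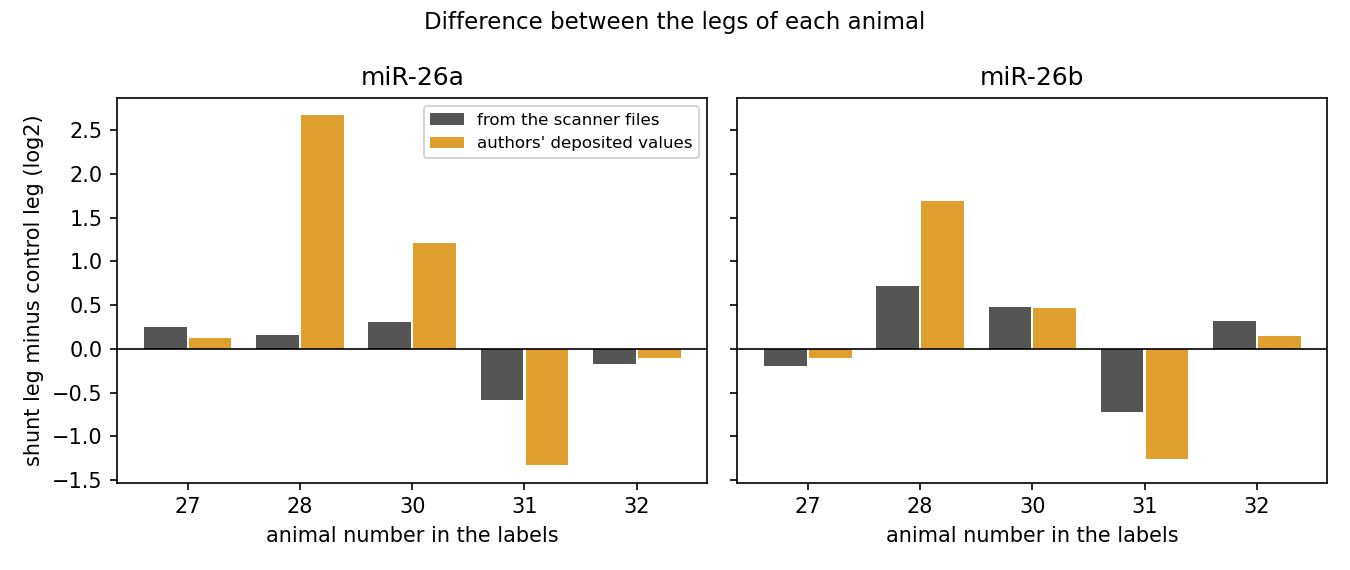
Difference between the shunt leg and the control leg (log2) of each of the 5 animals for miR-26a (left panel) and miR-26b (right panel), from the scanner files (grey bars) and in the authors' deposited values (yellow bars). Grey bars use all spots; without the faulty spot the grey miR-26a bars of animals 27 and 32 turn sign, to -0.17 and 0.23, against the yellow ones. The largest deposited difference is in animal 28 (2.67 for miR-26a) and the lowest in animal 31 (-1.33).

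Only 2 arrays held both groups, and on them the ratios depended on the processing. On the array of shunt 1 and control 5 the log2 ratio of shunt over control was 0.071 ± 0.060 for miR-26a and 0.29 ± 0.075 for miR-26b (SD of 3 spots). On the array of shunt 5 and control 1, in the opposite dye orientation, it was -0.11 ± 0.11 for miR-26a and -0.10 ± 0.064 for miR-26b (SD of 3 spots). The signs of these ratios were opposite between the 2 arrays for each member. With median centring in place of loess they were larger: 0.31 for miR-26a and 0.36 for miR-26b on the array of shunt 1 and control 5, and -0.79 for miR-26a (-1.27 without the faulty spot) and -0.72 for miR-26b on that of shunt 5 and control 1. Between RNAs of one group the ratios of miR-26a were 0.14 to 0.40 in size on the 4 shunt arrays and 0.11 to 0.92 on the 4 control arrays. Those of miR-26b were 0.13 to 0.59 in size on the shunt arrays and 0.17 to 1.26 on the control arrays. So the largest ratios of both members lay between control RNAs, on arrays that held control 4. When levels were solved from the ratios alone, which uses only differences within arrays, miR-26a differed by -0.17 log2 (SE 0.17, limma adjusted p = 0.512) and miR-26b by 0.25 (SE 0.20, adjusted p = 0.414). The solved levels were taken as independent, although neighbours in the loop share an array and only 2 arrays link the groups. These SEs may therefore be too small.

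**Figure D3:**
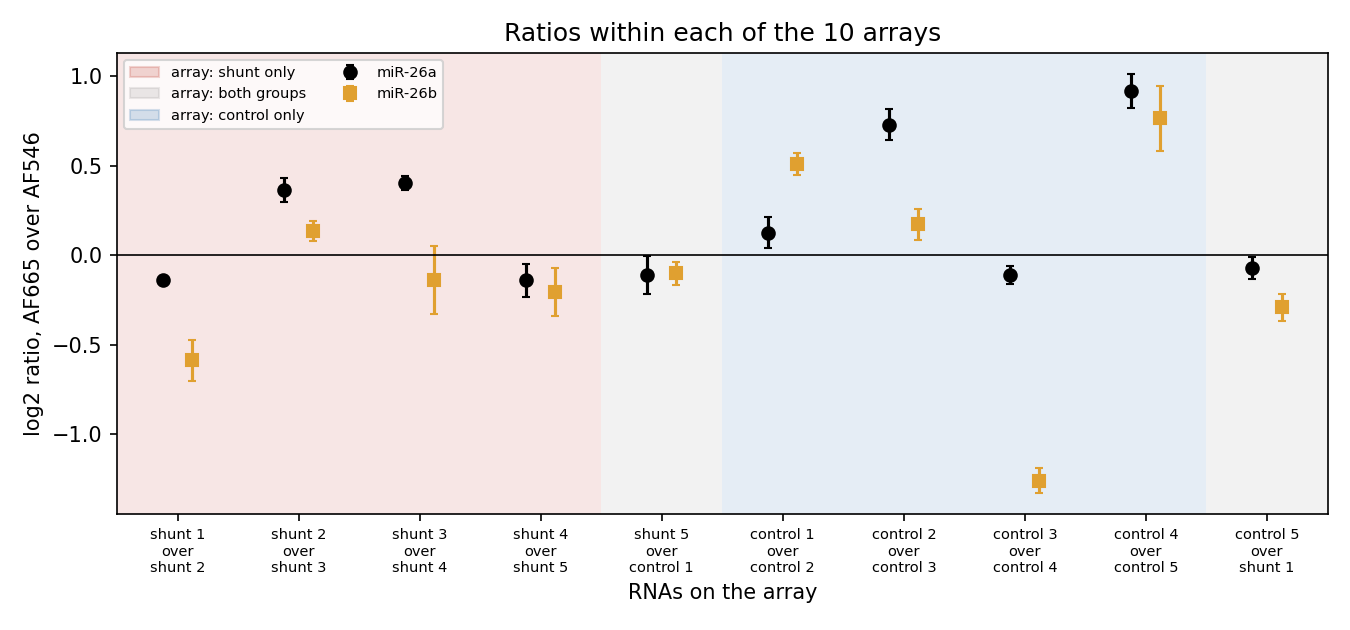
Log2 ratio of the AF665 over the AF546 reading on each of the 10 arrays for miR-26a (black circles) and miR-26b (yellow squares), with the RNAs named below. Bars are the SD of 3 spots. Red shading marks arrays of shunt RNA only, grey those of both groups and blue those of control RNA only; the ratios on the grey arrays, after loess, are 0.29 or less in size, and the rightmost is control over shunt.

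Both readings of an RNA differed for some RNAs. They came from different dyes and also from different arrays, so dye and array cannot be told apart in this gap. For miR-26a the AF665 reading minus the AF546 reading ran from -0.83 (shunt 5) to 0.97 (control 3), and it was above 0 in 7 of 10 RNAs. Without the faulty spot it was -0.035 in shunt 5 and 0.051 in control 1 (0.89 with it), and it ran from -0.16 (shunt 4) to 0.97 (control 3). For miR-26b it ran from -0.35 (control 4) to 0.14 (control 2), and it was above 0 in 2 of 10 RNAs. Each RNA was read once in each dye, so a bias of the dye that is equal in all RNAs cancels in the group comparison.

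How closely the 2 members followed each other depended on the processing and on 1 spot. Over the 10 RNAs their levels had a Pearson r of 0.594 as normalized, or 0.458 (Spearman's rho 0.212) with each RNA centred on its median over the 93 miRNAs. Without control 4 the centred r was -0.144. Without the faulty spot r was 0.837, the centred r 0.732 (rho 0.576), and the centred r without control 4 was 0.406, so these values rest on that spot and on control 4. In the authors' deposited value table r was 0.951 (rho 0.952), and with median centring in place of loess it was 0.941. These are descriptions without a test: the RNAs share arrays, and pairs of RNAs share an animal.

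**Figure D4:**
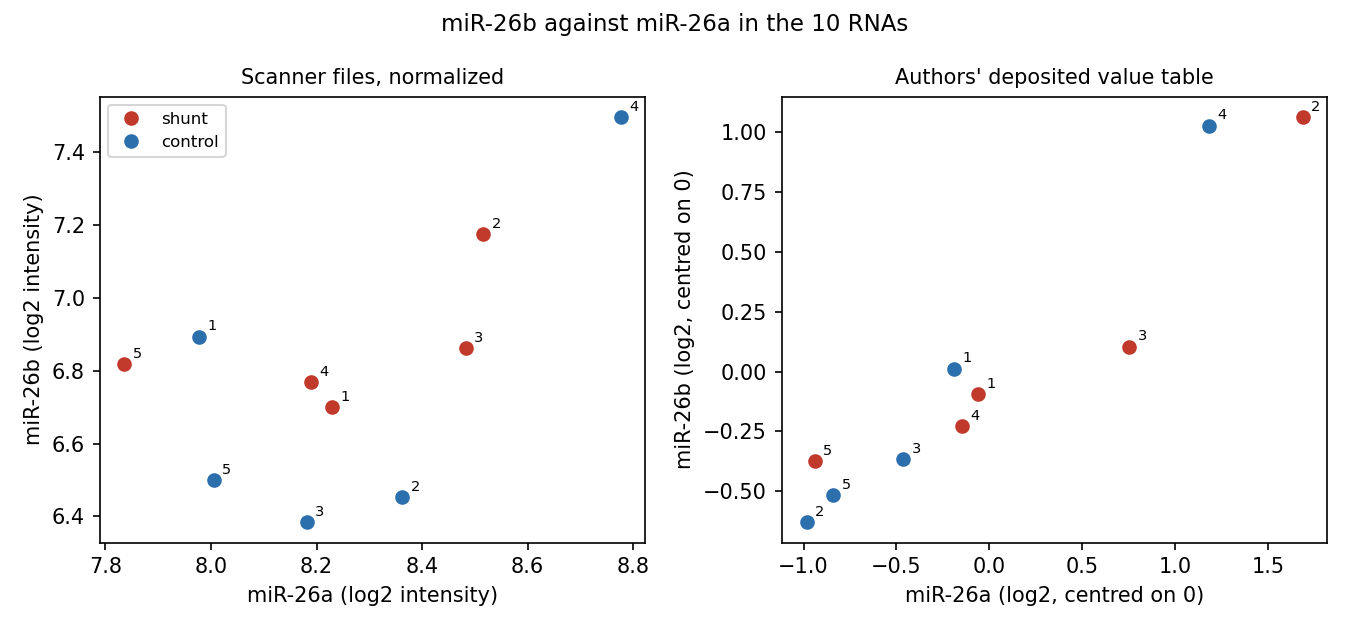
miR-26b against miR-26a in the 10 RNAs, shunt in red and control in blue with the replicate number beside each point, from the scanner files (left, log2 intensity, all spots, r = 0.594) and in the authors' deposited value table (right, log2 centred on 0, r = 0.951). Control 4 and shunt 2 stand at the upper right of the deposited values.

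The loess step, which removes the trend of the log ratio with brightness on each array, changed the ratios within arrays. Over the 10 arrays the log2 ratio was larger in size with median centring alone on 8 for miR-26a and on 8 for miR-26b, and its sign was the same in both settings on 8 for miR-26a and on 9 for miR-26b. On the array of shunt 1 and shunt 2 the log2 ratio of miR-26a was -1.51 when the array was only centred on its median, and -0.14 after loess. On the array of control 4 and control 5 it was 2.18 when centred and 0.92 after loess, and on that of control 1 and control 2 it was 1.495 when centred and 0.12 after loess. On the array of control 3 and control 4 it was -1.42 when centred and -0.11 after loess. Its sign turned on the array of control 2 and control 3, with -0.19 when centred and 0.73 after loess, and on that of shunt 4 and shunt 5, with 0.13 when centred and -0.14 after loess. For miR-26b it turned on the array of control 2 and control 3, with -0.30 when centred and 0.17 after loess. With median centring the group differences were -0.053 log2 for miR-26a (SE 0.37) and 0.064 for miR-26b (SE 0.29), and neither passed the limma test (adjusted p = 0.932 and 0.922).

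With all spots the level of miR-26a over the 10 RNAs was most like that of miR-16, miR-497 and miR-335, by Pearson's r of the centred levels (0.803, 0.732 and 0.687). The level of miR-26b was most like that of miR-352, miR-20a* and let-7i (0.938, 0.871 and 0.865). With all spots miR-26b ranked at 19 among the 92 miRNAs set against miR-26a, and miR-26a at 23 for miR-26b. Without the faulty spot miR-26b ranked at 3 for miR-26a and miR-26a at 9 for miR-26b, and the first 3 for miR-26a were miR-16 (0.849), miR-23b (0.82) and miR-26b itself (0.732), so that 1 of its 3 remained, while those for miR-26b were the same 3. Of the 6 found with all spots, the 4 in the RefSeq table are printed, so that their seeds can be read beside that of miR-26; capitals again mark the seed.
miR-16: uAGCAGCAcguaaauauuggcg
miR-497: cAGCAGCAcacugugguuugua
miR-20a*: aCUGCAUUacgagcacuuaca
let-7i: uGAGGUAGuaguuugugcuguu
miR-16 and miR-497 have one seed between them, and none of the 4 has the seed of miR-26. The 6 themselves differed by 0.011 (miR-497) to 0.40 (miR-20a*) log2 between shunt and control RNAs, and 0 of them passed the limma test (adjusted p = 0.294 to 0.966). In shunt RNAs 5 of 10 readings of miR-335 exceeded the background, against 0 of 10 in control RNAs, and for miR-352 and miR-497 these were 6 of 10 in shunt RNAs and 3 of 10 in control RNAs each. Without control 4 the r of miR-497 with miR-26a was 0.53 and that of let-7i with miR-26b 0.592.

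Other miRNAs known for the same processes were set beside the members as lists, chosen with earlier results of these data known and described without a test. Of 13 miRNAs on the array known to act on the smooth muscle phenotype, 12 were kept, of which 11 read higher and 1 lower, with a median difference of 0.18 log2 against 0.12 over all 93, and 1, miR-21, passed the limma test as higher. By mean level the first 3 on this list were let-7d (0.60, SE 0.22, adjusted p = 0.182), miR-143 (0.046, SE 0.26, adjusted p = 0.966) and miR-24 (0.020, SE 0.15, adjusted p = 0.966). Of 13 known to act on SMAD signalling, 10 were kept, of which 5 read higher and 5 lower, with a median of 0.010, and miR-21, which is also on this list, was the 1 that passed; miR-23b differed by 0.035 (SE 0.12), miR-30d by -0.18 (SE 0.11) and miR-146 by 0.47 (SE 0.18). Of 13 known to repress EZH2, 9 were kept, most of them of the let-7 family, and all 9 read higher with a median of 0.31, and 0 passed; let-7c differed by 0.35 (SE 0.15), let-7b by 0.31 (SE 0.18) and let-7a by 0.23 (SE 0.17). The difference of miR-26a lay below the median of each list, and that of miR-26b below the median of the first and the third.

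The tissue carried markers of vessel wall, and of other tissues as well. The smooth muscle miRNAs miR-143 and miR-145 were above background in 10 and 9 of 10 shunt readings and in 10 and 8 of 10 control readings, and endothelial miR-126 in 10 of 10 of each group, while its opposite arm miR-126* was at 0 of 10 in both. Of these vessel markers miR-143 differed by 0.046 log2, miR-145 by -0.26 (limma adjusted p = 0.235) and miR-126 by -0.0070. Striated muscle miRNAs were present too: all 4 (miR-1, miR-133a, miR-133b and miR-206) were kept and read higher in shunt RNAs, 0 of them passing the limma test. Over all kept miRNAs 67 of 93 (72.0%) read higher. The brightest of the 4, miR-206, averaged 7.74 log2 in shunt RNAs and 7.51 in control RNAs, and miR-1 averaged 7.01 and 6.43. miR-1 was above background in 10 of 10 shunt readings and 4 of 10 control readings. The erythroid miRNAs miR-144 and miR-451 were above background in 0 of 10 readings of each group. Of leukocyte miRNAs 1 of 4 was kept, miR-150, of epithelial and liver ones 4 of 6, and of nerve ones 2 of 4. Not all of these were above background in both groups. While miR-122a was at 10 of 10 in each, miR-200a, miR-200b and miR-203 were kept through shunt RNAs only. They were at 5, 6 and 8 of 10 shunt readings and 0, 0 and 3 of 10 control readings. Of the kept epithelial and liver ones 3 read higher in shunt RNAs and 1 lower, and the kept leukocyte and nerve ones read lower. Fewer cells of a type and less RNA per cell cannot be told apart in whole tissue, and the part of these other cell types in the miR-26 levels was not tested.

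**Figure D5:**
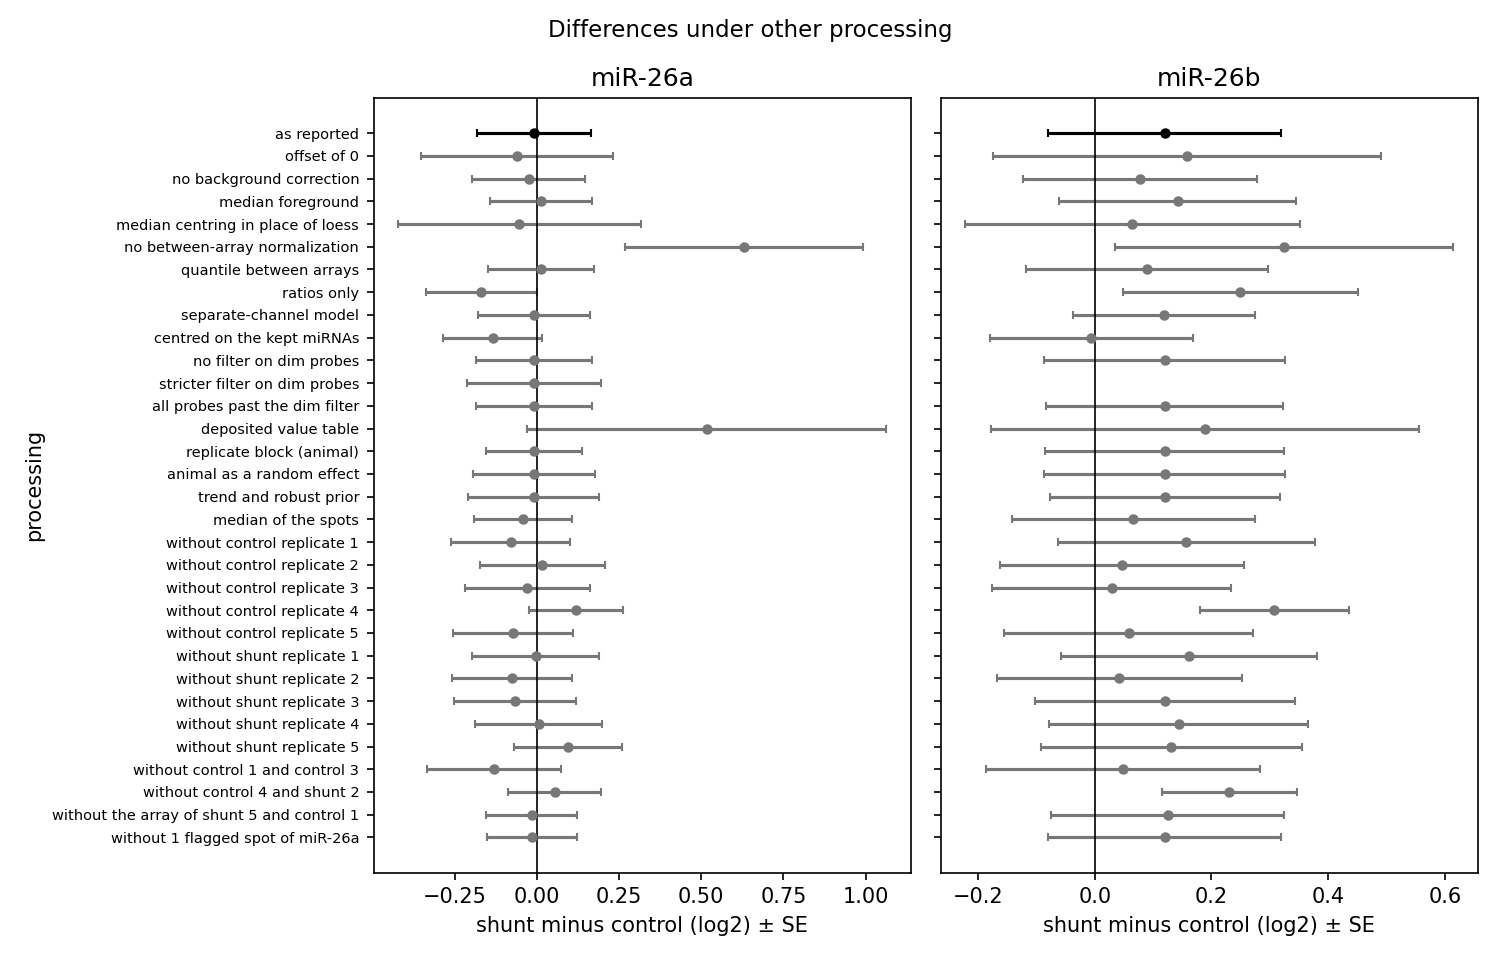
Fitted difference between shunt and control RNAs (log2, points) with its SE (bars) for miR-26a (left panel) and miR-26b (right panel), as reported (top, black) and under each other processing (grey). miR-26a runs from -0.17 with ratios only to 0.63 with no between-array normalization, and miR-26b from -0.0057 when centred on the kept miRNAs to 0.32 with no between-array normalization. The miR-26b panel has no point for the stricter filter, which it did not pass.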

How the data were processed

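MicroRNA levels were read with 2 dyes on 10 arrays of 3321 spots, 1107 probes with 3 spots each. The authors deposited scanner files with foreground and background intensity and the percent of saturated pixels per spot, without normalization, per the file headers. The authors' deposited value table holds log2 levels centred on 0; how it was normalized is not stated. The authors' deposited table of folds holds per animal a p-value and a fold with a sign (score); these folds equal the differences of the value table. Channels were assigned to RNAs by the dyes in the labels.

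Mean foreground was corrected with normexp (offset 50, which sets a floor of 5.64 log2 and understates changes of dim probes), normalized within arrays (loess with a span of 0.3 and 4 iterations) and by Aquantile, with limma 3.58.1 under R 4.3.3 and statmod 1.5.0, then averaged over the spots and then over both readings of an RNA. The fit used lmFit and eBayes over 93 kept miRNAs, two-sided, at a threshold of 0.05 after adjustment. Steps were run on simulated data with an offset of 0 in place of 50, so the offset as used here was not tested in that way. The sample names tie both legs to 1 animal; after removal of the group means, the legs of an animal correlated by -0.418 to 0.337. Over the kept miRNAs, each centred on its mean, both readings of an RNA correlated by -0.198 for control 1 and -0.028 for control 3. For the other RNAs this was 0.25 to 0.768, so the levels of control 1 and control 3 are less certain. Without them the difference was -0.13 log2 for miR-26a (SE 0.20) and 0.049 for miR-26b (SE 0.24). The number of arrays limits the precision.

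The members, the lists and the alternatives were chosen with earlier results of these data known. Named are both members, for each the 3 kept miRNAs with the highest centred r, the up to 3 brightest kept members of each list, and any miRNA past the threshold.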

Additional observations from a re-analysis of the deposited data

How the results depend on the processing

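Neither member passed the threshold under any alternative that gave a test, 31 for miR-26a (limma adjusted p from 0.198 to 0.992) and 30 for miR-26b (0.0945 to 0.978), nor with the replicate block of the animal, where the differences were -0.0090 (adjusted p = 0.978) and 0.12 (adjusted p = 0.764). The sign of the miR-26a difference turned in 9 of 32 alternatives: it was 0.012 with the median foreground, 0.013 with quantile normalization, 0.63 with no between-array normalization (where the median of the kept miRNAs moved to 0.28), 0.52 with the deposited value table, 0.054 without control 4 and shunt 2, and -0.080 to 0.12 with 1 RNA left out. miR-26b turned once, to -0.0057 when centred on the kept miRNAs, and ran from 0.029 to 0.31 with 1 RNA left out. The cause was not tested. An offset of 0 gave -0.061 (SE 0.29) and 0.16 (SE 0.33). The count of 1 miRNA past the threshold became 0 in limma with median centring (9 at an unadjusted p under 0.05), no between-array normalization (31), a stricter dim-probe filter that left 19 miRNAs and removed miR-26b (2), the deposited value table (4), the replicate block (13) and without control 1 and control 3 (12). It was 2 with an offset of 0, the median foreground, quantile normalization and all probes past the dim filter, 3 with no background correction, ratios only, no filter on dim probes and the median of the spots, 4 with centring on the kept miRNAs or a trend and robust prior, 8 with the separate-channel model and 16 without control 4 and shunt 2, and ran from 0 to 25 with 1 RNA left out (25 without control 4). Of the 3 most similar miRNAs of each member, 2 stayed with levels not centred and with Spearman's rho. Alternatives chosen after seeing the data left out control 4 and shunt 2, the array of shunt 5 and control 1 (-0.015 and 0.12), or the faulty spot, which turned the miR-26a difference of animals 27 and 32.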
